A study of Triticum aestivum with 6 samples.

Results

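The 3 homoeologs of the wheat domestication gene Q were examined in axillary buds, the buds in leaf axils that grow out as tillers. Q is also named AP2L5. The genes were chosen by identifier as TraesCS5A02G473800 on chromosome 5A (here Q-5A), TraesCS5B02G486900 on 5B (Q-5B) and TraesCS5D02G486600 on 5D (Q-5D). All 3 were among the 70043 genes listed in the deposited tables, and all 3 were among the 52228 with enough counts to be tested. Fielder, a spring wheat cultivar, was compared with the tatfl1-5 mutant (aabbdd), with 3 libraries each. The mutant carried null alleles of the 5A, 5B and 5D copies of TaTFL1-5, made in Fielder with CRISPR/Cas9, and was a single transgene-free line. Its buds came from seedlings whose age the methods give as 3 weeks and the results text as 10 days. The comparison addressed which transcripts differed between the genotypes in the organs from which tillers arise.

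Q encodes an APETALA2-like transcription factor, a protein family that binds DNA and can act with TOPLESS-type corepressors. Transcripts of this family are targets of the microRNA miR172, and in Arabidopsis the production of miR172 is promoted by SPL transcription factors. The cultivated Q allele on 5A differs from the ancestral q allele within the miR172 target site. In wheat, Q is known for free-threshing grain, a tough rachis and a compact spike. The 5D copy is also expressed, whereas the 5B copy has been described as a pseudogene.

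Library totals lay between 13320461 and 17174131 counts, and 1 count was worth between 0.0583 and 0.0725 CPM (counts scaled to one common library total with edgeR's TMM factors). Levels of different genes are compared as FPKM, the count scaled by the length of the gene and by the library total. Chlorophyll a/b-binding genes, 4 in number, that the study had selected as differentially expressed, and which mark green tissue, had a summed level between 0.124 and 1.71 FPKM in Fielder and between 32.1 and 40.7 FPKM in the mutant. In the mutant, 4 of 4 were called higher, against 7.98% of all tested genes, and 0 of them lacked counts in every Fielder library. The study selected them in these same libraries, so their direction is not independent evidence. They were added here after values had been seen, and other genes of this family were not examined. Whether the difference in these 4 chlorophyll genes had a part in the values of the Q homoeologs was not tested. In bulk tissue, fewer cells of a type and less RNA per cell cannot be told apart. Markers of the axillary meristem were not checked here.

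Q-5A was the most abundant homoeolog in every library, followed by Q-5D and then Q-5B. In the order of replicates 1, 2 and 3, the level of Q-5A was 23.3, 29.7 and 36.1 FPKM in Fielder, while the mutant had 27.9, 29.7 and 31.8 FPKM. The mutant libraries all lay inside the range of the Fielder libraries. The mean level of Q-5A was 29.7 ± 6.41 FPKM in Fielder and 29.8 ± 1.98 FPKM in the mutant (SD, n = 3 each). This was higher than the mean level of 94.9% of the listed genes with counts in Fielder and of 94.6% in the mutant. The Q-5A transcript was thus among the more abundant ones in the buds of both genotypes.

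**Figure D1:**
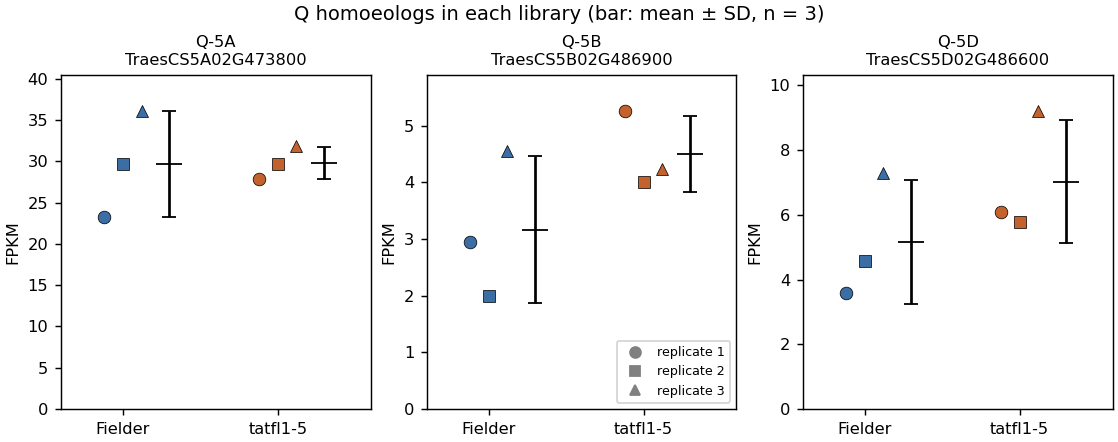
Level of each Q homoeolog in FPKM (vertical axis, separate scale for each panel) in Fielder and tatfl1-5 libraries, with replicates as symbols and the mean ± SD of 3 libraries as bars. Q-5A lies between 23.3 and 36.1 FPKM, and the groups overlap in every panel.

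Q-5D, the copy on the D subgenome, stood at 3.59, 4.58 and 7.30 FPKM in Fielder, while the mutant libraries had 6.08, 5.77 and 9.20 FPKM, in the same order of replicates. Fielder replicate 3 lay above mutant replicates 1 and 2, so that the groups overlapped. Q-5B, the copy on the B subgenome, stood at 2.94, 1.99 and 4.56 FPKM in the Fielder libraries and at 5.25, 4.01 and 4.23 FPKM in the mutant libraries. Fielder replicate 3 again lay above mutant replicates 2 and 3. The mean levels were 5.16 ± 1.92 and 7.02 ± 1.90 FPKM for Q-5D, and 3.16 ± 1.30 and 4.50 ± 0.663 FPKM for Q-5B, in Fielder and the mutant (SD, n = 3 each). Behind the lowest of these values, that of Q-5B in Fielder replicate 2, stood 34 counts, whereas Q-5A had between 578 and 1156 counts per library.

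The order of the 3 levels held within each library. Q-5A was on average 5.07-fold above Q-5D, with a range from 3.46-fold to 6.49-fold over the 6 libraries. Q-5A was on average 8.07-fold above Q-5B, with a range from 5.31-fold to 14.9-fold. Q-5D was on average 1.59-fold above Q-5B, with a range from 1.16-fold to 2.30-fold. For each of these 3 pairs the first gene was higher in 6 of 6 libraries, with p = 0.0313 in an exact two-sided sign-flip permutation test, the smallest p that 6 libraries allow, and 0.0313 after adjustment over the 3 pairs. This test was added after the order had been seen, so its p restates the 6 of 6 and adds no independent support. Across the libraries of a genotype, the ranges of Q-5D and Q-5B overlapped in Fielder but not in the mutant. The size of the gap between Q-5D and Q-5B depended on the gene lengths behind the FPKM values, which were 1866 bases for Q-5A, 1755 for Q-5D and 1124 for Q-5B. In raw counts, without this scaling, Q-5D was 2.49-fold and Q-5A 13.4-fold above Q-5B on average. The sequences of homoeologs are similar and the counting could have split or dropped reads that fit several of them, which was not tested.

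The balance of the homoeologs was computed as the share of each gene in the summed FPKM of the 3. The share of Q-5A was 78.1%, 81.9% and 75.3% in Fielder, while the mutant had 71.1%, 75.2% and 70.3%, again by replicate. The groups did not overlap, but only just, since the lowest Fielder share (75.26%, replicate 3) and the highest mutant share (75.24%, replicate 2) were nearly equal. By raw counts the groups overlapped, with a share of 79.0% in Fielder replicate 3 and 79.1% in mutant replicate 2. The mean share of Q-5A was 78.4% ± 3.33 in Fielder and 72.2% ± 2.64 in the mutant (SD, n = 3 each). The share of Q-5D was 13.3% ± 1.69 in Fielder and 16.8% ± 3.08 in the mutant, and that of Q-5B was 8.29% ± 2.43 and 11.0% ± 2.15 (SD, n = 3 each). For Q-5D and Q-5B the libraries of the groups overlapped. Counting error alone gave the count share of Q-5A in a single library an exact (Clopper-Pearson) 95% interval with a half-width between 2.12 and 2.91 percentage points, which does not cover the spread between plants or libraries.

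**Figure D2:**
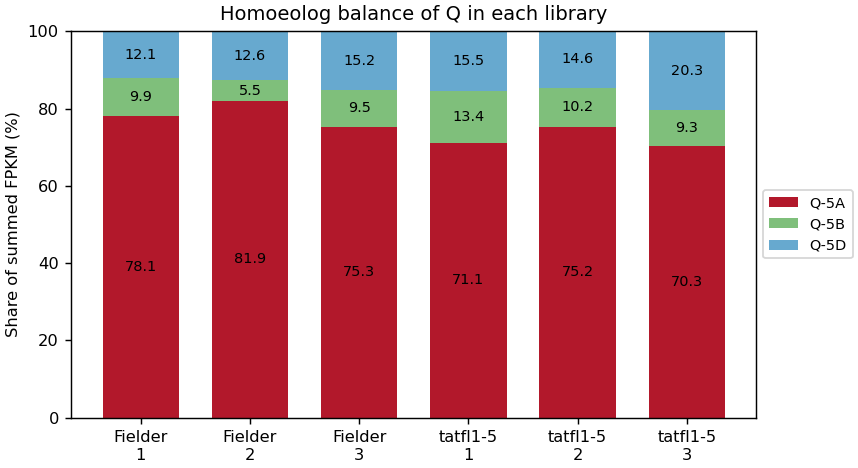
Share of each Q homoeolog in the summed FPKM of the 3 genes (vertical axis, in percent), for each of the 6 libraries. Q-5A takes between 70.3% and 81.9%. The highest mutant library (75.24%) and the lowest Fielder library (75.26%) are nearly equal, and by raw counts the groups overlap.

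The balance was compared between genotypes through the ratios between homoeologs within a library. The level of Q-5A was 7.91, 14.9 and 7.91 times that of Q-5B in the Fielder libraries and 5.31, 7.41 and 7.53 times in the mutant libraries. The groups did not overlap, and the mean log2 ratio was lower in the mutant, with a difference of -0.55 and a standard error of 0.35. This gave p = 0.1 in an exact two-sided permutation test, the smallest p that 3 against 3 libraries allow, and 0.3 after adjustment over the 3 ratios. Without Fielder replicate 2, the library with 34 counts of Q-5B, the difference was -0.25, and without mutant replicate 1 it was -0.39. The level of Q-5A was 6.47, 6.49 and 4.94 times that of Q-5D in Fielder and 4.58, 5.15 and 3.46 times in the mutant. Here the groups overlapped, with a difference of -0.45 on the log2 scale, a standard error of 0.21 and an exact permutation p of 0.2 (adjusted 0.3). Without mutant replicate 3 that difference was -0.29. The ratio of Q-5B to Q-5D differed by 0.10 (standard error 0.38, exact permutation p of 0.7), which was less than the spread between replicates. Since the exact test cannot pass a threshold of 0.05 with 3 against 3 libraries, it does not show whether the differences in the ratios of Q-5A exceeded the spread between libraries.

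The difference between genotypes was tested for each homoeolog in the edgeR quasi-likelihood fit across all 52228 genes, with p-values adjusted over all of them. Calls required both an adjusted p below 0.05 and more than a 2-fold change. By this rule 13.7% of the tested genes passed, 7.98% with a higher and 5.75% with a lower level in the mutant. Of the 3 Q homoeologs, 0 passed, which is an ordinary result for 3 genes at such a share. The counts that follow come from the same 3 genes and libraries and are not separate evidence. At an unadjusted p under 0.05 in edgeR, 0 of the 3 homoeologs passed, against 38.3% of all tested genes. By the same call rule DESeq2 also called 0 of 3, against 14.6% of all tested genes, and limma 0 of 3, against 9.24% with a pseudocount of 1 FPKM and 14% with 0.1 FPKM. The groups did not overlap in CPM for 43.1% of the tested genes, and overlapped for all 3 homoeologs.

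The difference was smallest for Q-5A. Its expression was 54.5 ± 12.7 CPM in Fielder and 57.1 ± 3.52 CPM in the mutant (SD, n = 3 each), which is a log2 fold change of 0.07 ± 0.18 (standard error, edgeR adjusted p = 0.817). The 95% interval of the fold ran from 0.805 to 1.36, so that a 2-fold change in either direction lay outside it. The absolute log2 fold change was smaller in only 7.23% of the tested genes, and the median over all tested genes was 0.48. This rank was not matched for abundance, and the mean CPM of Q-5A was above that of 93.5% of the tested genes. Without Fielder replicate 1, the lowest of the Fielder libraries for this gene, the sign turned (log2 fold change -0.091), and without Fielder replicate 3 the value was 0.24.

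The log2 fold change was 0.56 ± 0.35 for Q-5B (standard error, edgeR adjusted p = 0.257) and 0.49 ± 0.28 for Q-5D (adjusted p = 0.213). Expression in Fielder and the mutant was 3.50 ± 1.5 and 5.19 ± 0.741 CPM for Q-5B, and 8.92 ± 3.49 and 12.6 ± 3.23 CPM for Q-5D (SD, n = 3 each). The 95% intervals of the fold, from 0.88 to 2.47 for Q-5B and from 0.929 to 2.13 for Q-5D, held both no change and a doubling. The size of these log2 fold changes was near the middle of all tested genes, with 56.5% of genes below that of Q-5B and 51.0% below that of Q-5D.

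**Figure D3:**
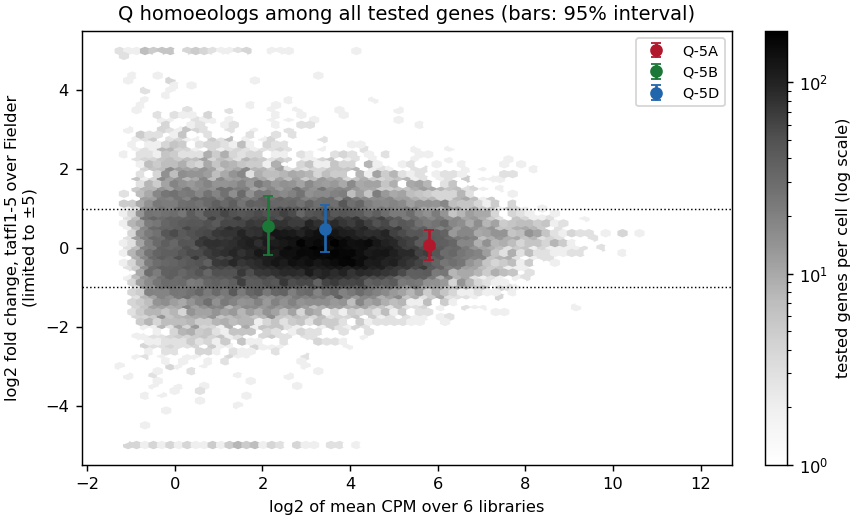
Log2 fold change of tatfl1-5 over Fielder (vertical axis) against the log2 of the mean CPM over 6 libraries (horizontal axis) for the 52228 tested genes, shaded by number, with the Q homoeologs and their 95% intervals in colour and the 2-fold limits as dotted lines. The interval of Q-5A lies within the 2-fold limits, and the upper ends for Q-5B and Q-5D, at 1.31 and 1.09, lie beyond them.

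The size of these differences depended on single libraries. Fielder replicate 3 had the highest level of all 3 homoeologs among the Fielder libraries, and was also the deepest library. The highest Fielder library was 1.61-fold above the lowest for Q-5A, 2.35-fold for Q-5B and 2.10-fold for Q-5D in CPM, against 1.13-fold, 1.28-fold and 1.54-fold in the mutant. Without Fielder replicate 3, the log2 fold change was 0.94 for Q-5B (adjusted p = 0.0715 in edgeR) and 0.85 for Q-5D (unadjusted p = 0.00792 and adjusted p = 0.0334 in edgeR), still within the 2-fold limit. Without Fielder replicate 2, that of Q-5B was 0.31. The log2 fold change of Q-5D was 0.28 without Fielder replicate 1 and 0.27 without mutant replicate 3. Over all settings and left-out libraries, the log2 fold change of Q-5B stayed between 0.31 and 0.94 and that of Q-5D between 0.27 and 0.85. When a library was left out, the edgeR adjusted p ranged from 0.0715 to 0.569 for Q-5B and from 0.0334 to 0.602 for Q-5D. The biological coefficient of variation that edgeR estimated was 0.165 for Q-5A, 0.286 for Q-5B and 0.238 for Q-5D, with a median of 0.227 over the tested genes.

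**Figure D4:**
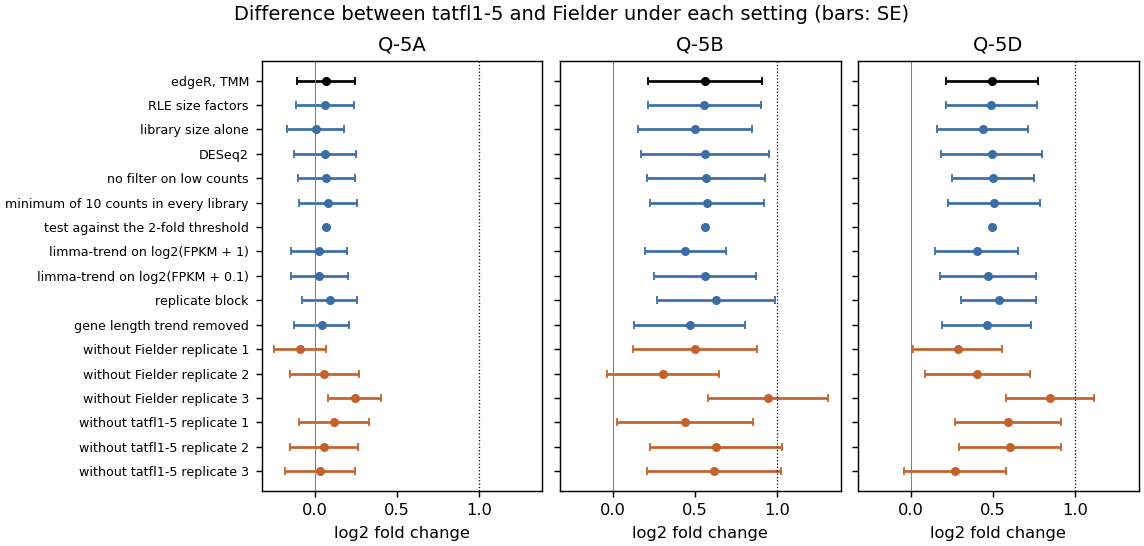
Log2 fold change of tatfl1-5 over Fielder (horizontal axis, bars are standard errors, none for the test against the 2-fold threshold) for each Q homoeolog under each setting, with left-out libraries in orange. Every value for Q-5B and Q-5D is above 0, Q-5A lies between -0.091 and 0.24, and the 2-fold limit at 1 (dotted) is reached by none of the values.

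The summed level of the 3 homoeologs by replicate was 51.2, 64.1 and 85.3 CPM in Fielder, while the mutant had 70.1, 73.2 and 81.2 CPM. The mutant libraries lay within the Fielder range. The difference was 0.19 on the log2 scale (standard error 0.22, exact two-sided permutation p of 0.5), with 0.38 without Fielder replicate 3 and 0.01 without Fielder replicate 1.

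The surroundings of the homoeologs were described through the 10 listed genes on each side, in the order of the identifiers. Of these 60 neighbours, 49 were tested and 6 passed the call rule (12.2%), of which 4 rose and 2 fell in the mutant, close to the 13.7% over all tested genes. Around Q-5A, 2 were called higher and 1 lower among 16 tested, around Q-5B 2 higher and 1 lower among 19, and around Q-5D 0 among 14. The median log2 fold change of the tested neighbours was 0.37 around Q-5A, 0.28 around Q-5B and 0.38 around Q-5D, against 0.0046 over all tested genes. The value of Q-5D, 0.49, lay within the range of its neighbours from -0.50 to 0.73. In Fielder, Q-5A had the highest level of its stretch of 21 genes, while Q-5D was in place 8 and Q-5B in place 12. In the mutant, Q-5A was in place 2, below TraesCS5A02G473700, with Q-5D in place 7 and Q-5B in place 11.

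**Figure D5:**
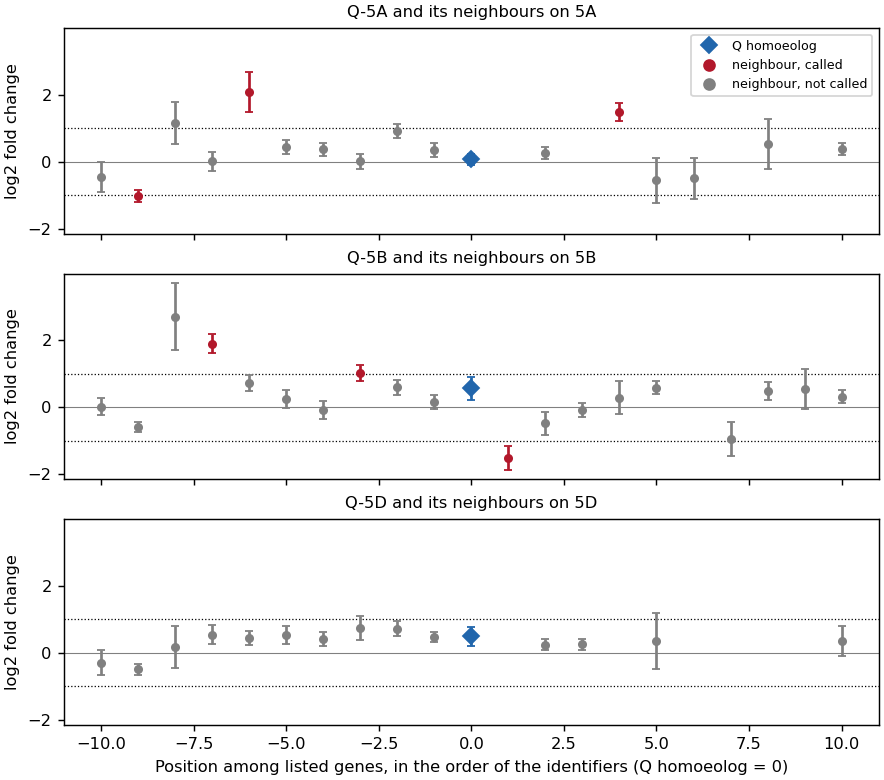
Log2 fold change of tatfl1-5 over Fielder (vertical axis, bars are standard errors) of each Q homoeolog (diamond) and of the tested genes among the 10 listed on each side (horizontal axis, position in the order of the identifiers). Called neighbours, in red, number 3 around Q-5A, 3 around Q-5B and 0 around Q-5D.

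The genes listed just before each homoeolog, chosen after their values were seen, were expressed at similar levels on the 3 chromosomes. The levels of TraesCS5A02G473700, TraesCS5B02G486700 and TraesCS5D02G486500 were 28.3 ± 7.44, 27.6 ± 8.15 and 30.5 ± 1.79 FPKM in Fielder, and 34.6 ± 1.04, 29.6 ± 2.49 and 40.3 ± 0.939 FPKM in the mutant (SD, n = 3 each). Each took between 26.7% and 42.2% of their summed FPKM in the 6 libraries, whereas Q-5A took at least 70.3% of the summed FPKM of the Q homoeologs. Whether these genes are homoeologs of each other was not tested. None of them was called, with log2 fold changes of 0.35, 0.16 and 0.47. The edgeR adjusted p was 0.227, 0.625 and 0.0394, so that TraesCS5D02G486500 missed the call only through the 2-fold limit.

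The genes whose log2 CPM followed each homoeolog most closely were found by the Pearson correlation over the 6 libraries, among 51654 other genes with a mean of at least 10 counts. For Q-5A they were TraesCS1B02G481500, TraesCS5A02G435800 and TraesCS6B02G424800, with r = 0.997, 0.997 and 0.995. For Q-5B they were TraesCS4D02G014600, TraesCS1A02G368700 and TraesCS4D02G086900, with r = 0.998, 0.998 and 0.997. For Q-5D they were TraesCS3A02G423100, TraesCS1A02G244900 and TraesCS4D02G339700, with r = 0.997, 0.995 and 0.992. None of these 9 genes was called, against 13.7% of all tested genes, but they were picked for following homoeologs that were not called themselves. The other Q homoeologs followed less closely, with r = 0.83 between Q-5A and Q-5D, 0.69 between Q-5B and Q-5D and 0.44 between Q-5A and Q-5B. Measured against Q-5A, Q-5D took place 1420 and Q-5B place 11511. These values describe 6 points that share their depth and scaling, and with so many genes compared they carry no test.

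SPL factors act upstream of miR172 in Arabidopsis. The 8 SPL genes and 2 TaPIL1 genes (encoding PHYTOCHROME-INTERACTING FACTOR-LIKE repressors of tillering) named by the study were chosen by it as differentially expressed in these same libraries, so their direction is not independent evidence. All 10 were tested. Calls of a higher level numbered 6 of 8 for SPL and 2 of 2 for TaPIL1, against 7.98% of all tested genes. The SPL genes not called were TraesCS2B02G250900 and TraesCS7A02G246500 (edgeR adjusted p = 0.0594 and 0.0510). Of the 10, 0 were called lower, against 5.75% of all tested genes. Their median log2 fold changes were 2.60 and 1.28, while the Q homoeologs lay between 0.07 and 0.56. The study's selection required a 2-fold change in these libraries, so this gap in size was built in and is no evidence about Q. In level, the highest mean of an SPL gene was 1.33 FPKM in Fielder (TraesCS5A02G265900) and 3.06 FPKM in the mutant (TraesCS7A02G246500), below every homoeolog of Q in the same genotype. TaTFL1-5A (TraesCS5A02G128600) and TaTFL1-5B (TraesCS5B02G127600), edited copies on the chromosomes of Q-5A and Q-5B, stood at 0.887 ± 0.258 and 2.64 ± 0.815 FPKM in Fielder and at 0.257 ± 0.181 and 1.25 ± 0.177 FPKM in the mutant (SD, n = 3 each), and neither was called. Other APETALA2-like genes, miR172 and TOPLESS-like genes were not analysed here.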

How the data were processed

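For each library, the authors deposited raw counts per gene and FPKM values made from them, after filtering the reads and mapping them to a wheat reference from Ensembl Plants. The aligner, counter and genome build are not given in the sources used here. Counts and FPKM of each Q homoeolog imply one gene length in all 6 libraries. Of the tested identifiers, 0 matched the reference gene table, so no positions or sequences are given.

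Genes passing filterByExpr were tested with edgeR 4.0.16 in R 4.3.3 (TMM, quasi-likelihood test, no covariates), adjusted by the Benjamini-Hochberg method. Intervals used the moderated degrees of freedom. Alternatives were scaling by RLE factors or by library size, DESeq2 1.42.0, limma 3.58.1 on log2 FPKM with a pseudocount of 1 or 0.1, a minimum of 10 counts or none, a test against the 2-fold threshold, a replicate block, removal of the gene length trend, and leaving out each library. Ratios were tested with scipy 1.17.1 in Python 3.11.15. The script was tested on simulated data.

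The named genes were the homoeologs, 3 genes most like each in pattern, 10 neighbours on each side and genes the study names. The homoeologs, lists and tests were chosen with earlier results of these data known. The sign-flip test, the chlorophyll genes and the genes just before each homoeolog were added after seeing the data. The labels call the libraries biological repeats, and the number of plants in each is not given in the sources used here.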

Additional observations from a re-analysis of the deposited data

How the results depend on the processing

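None of the Q homoeologs was called under any of the 10 alternatives or in the 6 fits that left out 1 library. Q-5B and Q-5D kept their direction in all of them, and Q-5A in all but 1, with log2 fold changes from -0.091 (without Fielder replicate 1) to 0.24 when a library was left out. Over all genes, the test against the 2-fold threshold called 1396 in place of 7172. Sharing by raw counts moved the mean share of Q-5B to 5.22% in Fielder and 6.99% in the mutant. That of Q-5A rose in both genotypes, to 81.7% in Fielder and 76.3% in the mutant. The difference in the log2 ratio of Q-5B to Q-5D changed sign with the library left out, from -0.13 without Fielder replicate 2 (-0.10 without mutant replicate 1) to 0.35. With 1 library left out, the mean within-library log2 ratio of Q-5A over Q-5B lay between 2.84 and 3.13. That of Q-5A over Q-5D lay between 2.27 and 2.45, and that of Q-5D over Q-5B between 0.57 and 0.76. In these fits, 5 libraries allow no exact sign-flip p below 0.0625. These alternatives to the sign-flip test were chosen after seeing the data.

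The samples share only a replicate number: deviations of same-numbered libraries correlated at -0.02, 0.05 and 0.01. With the replicate number as a block, the log2 fold changes were 0.09, 0.63 and 0.53 for Q-5A, Q-5B and Q-5D, and 0 were called (for Q-5D, edgeR unadjusted p = 0.0328 and adjusted p = 0.0976, the lowest of its 10 alternatives, whose highest was 1.0). Depth limits Q-5B most, with 34 to 99 counts per library.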
